A study of Rattus norvegicus with 84 samples.

Results

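The 10 genes described here are matrix proteases and their inhibitors: the matrix metalloproteases Mmp2, Mmp9 and Mmp14, the aggrecanase-family proteases Adamts1 and Adamts4, tissue plasminogen activator (Plat), and the tissue inhibitors of metalloproteases Timp1, Timp2, Timp3 and Timp4. They were chosen by symbol from a table of 41919 rat genes, with earlier results of these data known. All 10 were in the table and passed the filter on low counts. Total RNA was sequenced from 2 subregions of the nucleus accumbens, Shell and Core, of wild-type Long-Evans rats, an outbred strain. In each subregion the labels give 6 groups of 7 libraries: Ext_Coc, Ext_Sal, Ctx_Coc, Ctx_Sal, HC_Coc and HC_Sal, 84 libraries in all. Coc is cocaine, Sal is saline, and Ext is extinction in the study's terms. HC and Ctx, which the labels do not spell out, commonly stand for home cage and context in this field. Dose, age, sex and days of abstinence were not used here. The study set cocaine withdrawal beside extinction.

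Matrix metalloproteases are zinc enzymes made as inactive precursors. Outside the cell they cut collagens, laminins and other matrix proteins, and the 4 TIMPs bind and block their active sites. The membrane-bound enzyme encoded by Mmp14 activates the precursor of Mmp2 with the help of Timp2, Adamts1 and Adamts4 cut the lectican proteoglycans of perineuronal nets, Timp3 blocks several ADAMTS enzymes, and Plat makes plasmin from plasminogen. In rats, gelatinase activity (Mmp2 and Mmp9) in the accumbens core has been tied to cocaine seeking. Enzyme activity is set largely after transcription, and the values here are RNA only.

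The library names fall into series: 1, 2 and F in Core, and 3, 4 and F in Shell. Only the F series, with 12 libraries of each subregion, holds both, so for the numbered libraries subregion and series cannot be told apart. Libraries held from 13628550 to 22494761 counts. The libraries varied in the counts of 1385 olfactory and vomeronasal receptor genes, which are hardly used in this tissue. If every gene body carried this count per base, it would amount to a median background of 23.0% of a Shell library (2.34% to 54.0%) and 23.1% of a Core library (1.72% to 98.1%). The highest was Core Ctx_Coc library 17-F, and the lowest in Shell was HC_Coc library 6-F. The 12 oligodendrocyte markers, 10 mural and fibroblast markers and 7 projection neuron markers had counts in every library.

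Adamts4 stood apart from the other 9 genes, and 2 promoters are shown for that reason: that of Adamts4, the gene that differed between Shell and Core, and that of Adamts1, its relative in the same enzyme family that did not pass the test. RefSeq promoter sequences (rat build GRCr8) were at hand for 6 of the 10 genes (both ADAMTS genes and the 4 TIMPs). The Adamts4 window is chr13:86202761-86203010 on the plus strand and the Adamts1 window is chr11:38427385-38427634 on the minus strand, each the 250 bases before the annotated gene start, written 5′ to 3′. Capitals mark the letters ACAAAG, the core of sites for SOX factors, and GGGCGG, the GC box, on either strand.
Adamts4: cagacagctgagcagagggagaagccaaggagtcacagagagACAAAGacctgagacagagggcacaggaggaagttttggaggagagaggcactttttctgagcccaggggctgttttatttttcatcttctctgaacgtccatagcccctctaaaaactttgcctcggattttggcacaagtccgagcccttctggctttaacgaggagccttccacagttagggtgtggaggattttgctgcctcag
Adamts1: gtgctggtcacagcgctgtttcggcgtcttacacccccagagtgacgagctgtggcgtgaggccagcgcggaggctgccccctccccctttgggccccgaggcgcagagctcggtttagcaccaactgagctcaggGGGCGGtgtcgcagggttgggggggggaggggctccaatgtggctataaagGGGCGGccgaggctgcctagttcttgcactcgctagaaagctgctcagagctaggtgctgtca
The Adamts4 window held 1 ACAAAG, starting at -208 from the gene start, and no GGGCGG, with a GC content of 51.2%. The Adamts1 window held 2 GGGCGG, at -114 and -63, and no ACAAAG, with a GC content of 65.2%. The AP-1 letters TGANTCA were in neither. Of 33469 rat promoter windows of this length, 16.3% held ACAAAG, 30.5% held GGGCGG and 6.34% held TGANTCA. A match describes the letters only.

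Per length of gene, Timp2 had the highest level and Timp1 and Mmp2 the lowest. On the authors' FPKM scale (a count scaled by gene length and library size), Timp2 averaged 2.38 ± 0.487, Adamts4 1.24 ± 0.528, Timp4 1.10 ± 0.164 and Plat 1.03 ± 0.202 over all libraries (SD, n = 84 each). Mmp14 averaged 0.664 ± 0.297, Timp3 0.658 ± 0.143, Adamts1 0.530 ± 0.155, Mmp9 0.408 ± 0.212, Mmp2 0.276 ± 0.122 and Timp1 0.270 ± 0.0688 FPKM. In this order Timp2 lay above Adamts4, and Plat above Mmp14, by more than the SD of either gene, and the other neighbours lay within the larger SD of their pair. The length behind these values spans introns (49413 bases for Timp2, 4746 for Timp1), so a gene with long introns has a lower FPKM than its mRNA alone would give.

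**Figure D1:**
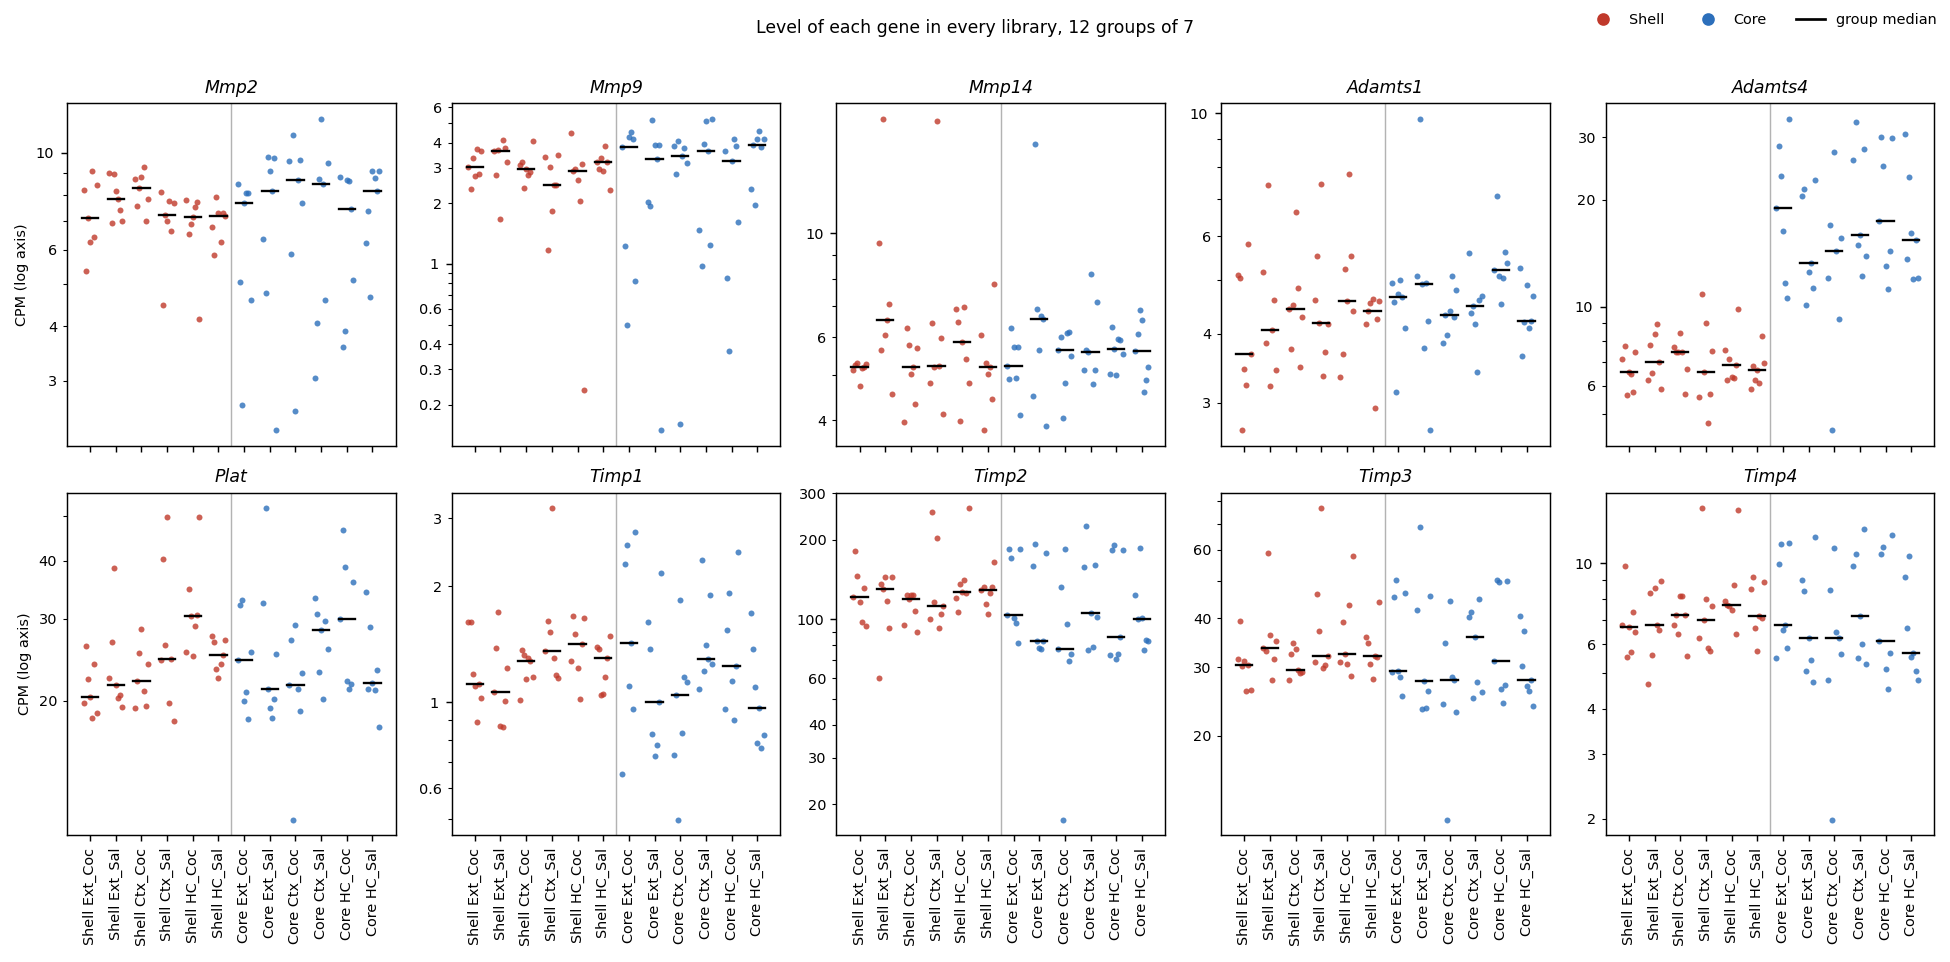
CPM (counts scaled to library size, log axis) of each gene in every library, by group, with Shell groups left of Core groups and a bar at each group median. Adamts4 is the gene whose Shell and Core libraries separate: its Shell medians run from 6.55 to 7.49 CPM and its Core medians from 13.3 to 19.0 CPM.

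Part of each count can be background. The rate per base of the receptor genes, multiplied by the gene's length, gave an expected background whose median over libraries was 68.0% of the count for Timp1, 64.1% for Mmp2 and 42.5% for Mmp9. For Timp1 it was above 100% of the count in 18 of 84 libraries, where the whole count could be background. It was 34.6% for Adamts1, 30.2% for Timp3, 29.0% for Mmp14, 18.7% for Plat, 17.8% for Timp4, 17.2% for Adamts4 and 7.60% for Timp2. The levels of Timp1, Mmp2 and Mmp9 thus lay closest to background. Timp1 counts ran from 11 to 57 a library and Mmp9 counts from 2 to 132. Several genes also share their locus: Timp1 lies inside Syn1, Timp3 inside Syn3 and Timp4 inside Syn2, synapsin genes of neurons, and Plat and Timp2 overlap Ikbkb and Cep295nl. How strand was handled in the counting is not given in the labels, so reads of overlapping genes cannot be told apart. On the FPKM scale Timp1 stood at 0.270 and Syn1 at 2.07, Timp3 at 0.658 and Syn3 at 0.290, and Timp4 at 1.10 and Syn2 at 1.38.

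**Figure D2:**
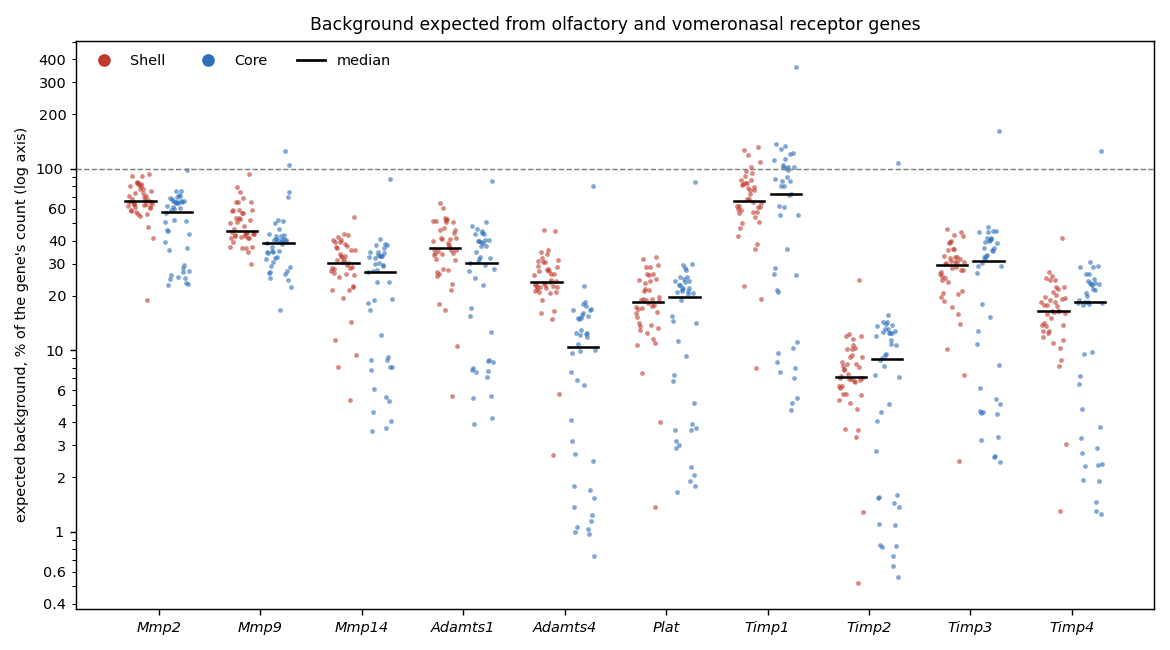
Expected background as a percentage of each gene's count (log axis), 1 point a library, Shell left of Core, with bars at the medians and a dashed line at 100%. Timp1 and Mmp2 sit highest, with medians over all libraries of 68.0% and 64.1%, and Timp2 lowest, at 7.60%.

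The first comparison set Shell against Core over all 6 groups. Of the 10 genes, Adamts4 was lower in Shell, by 2.54-fold, and the other 9 did not pass the test. In the test across all 32145 genes (edgeR's quasi-likelihood test, Benjamini-Hochberg adjusted p under 0.05), 13.3% of genes were called in either direction, 4.56% higher in Shell and 8.77% lower. The 1 call among 10 is near that background share. The median log2 fold change of the 10 genes was 0.03, and that of all genes 0.05. Whether every library is a different animal is not stated in the labels, and the p-values cover only library-to-library spread, which may be technical.

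Adamts4, an aggrecanase that cuts the lecticans aggrecan, brevican and versican, ran from 4.71 to 10.9 CPM in Shell libraries (median 6.85) and from 4.50 to 33.8 CPM in Core libraries (median 15.8; n = 42 each). All 42 Shell libraries were below the Core median, and 38 of 42 Core libraries were above the highest Shell library. The lowest Core library, 17-F, was below every Shell library, and 80.6% of its Adamts4 count was expected from background. Means were 7.05 ± 1.22 CPM in Shell and 18.2 ± 7.39 CPM in Core (SD). The log2 fold change, Shell minus Core, was -1.34 ± 0.10 (SE, edgeR adjusted p = 9.15e-19). Within the F series alone it was -1.49 ± 0.27 (edgeR adjusted p = 0.0452, 12 libraries of each subregion), and in the numbered libraries alone -1.30 ± 0.10 (edgeR adjusted p = 1.22e-14).

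The Adamts4 difference was in the same direction in each of the 6 condition and drug groups. In Ext_Coc, where 1.71% of all genes were called, Adamts4 ran from 5.67 to 7.79 CPM in Shell (median 6.55) and from 10.6 to 33.8 CPM in Core (median 19.0). In Ext_Sal (1.15% of genes called) it ran from 5.89 to 8.93 CPM in Shell (median 7.01) and from 10.1 to 22.7 CPM in Core (median 13.3). In neither did Shell and Core overlap, and the log2 fold changes were -1.59 ± 0.25 (edgeR adjusted p = 1.40e-05) and -1.13 ± 0.24 (edgeR adjusted p = 0.00428). In Ctx_Sal (1.65% called) the ranges were 4.71 to 10.9 CPM in Shell (median 6.57) and 12.2 to 33.2 CPM in Core (median 15.9). In HC_Coc (1.52% called) they were 6.25 to 9.90 CPM in Shell (median 6.87) and 11.3 to 30.04 CPM in Core (median 17.4). In HC_Sal (0.946% called) they were 5.87 to 8.28 CPM in Shell (median 6.67) and 12.0 to 30.6 CPM in Core (median 15.4). These 3 groups did not overlap either, with log2 fold changes of -1.53 ± 0.25, -1.47 ± 0.25 and -1.39 ± 0.24 (highest edgeR adjusted p = 0.000158). The exception was Ctx_Coc (0.109% called), where Shell ran from 5.70 to 8.46 CPM (median 7.49) and Core from 4.50 to 27.3 CPM (median 14.4). Only library 17-F, at 4.50 CPM, lay in or below the Shell range there. The log2 fold change of -0.97 ± 0.24 did not pass (edgeR adjusted p = 0.0862). Without 17-F it was -1.13 ± 0.23 and passed (edgeR adjusted p = 0.0068). With 17-F kept it also passed with DESeq2's size factors in edgeR (-0.98, adjusted p = 0.00545), in DESeq2's Wald test (-0.98, adjusted p = 0.000963) and with the background covariate in edgeR (-0.74, adjusted p = 6.82e-05). Over the other alternatives the edgeR adjusted p was 0.104 or higher.

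Adamts4 fell in Shell together with the oligodendrocyte markers. All 12 of these, among them the myelin genes Mobp, Opalin and Ugt8, were called lower in Shell, with a median log2 fold change of -1.74 and a range of -1.98 to -0.67. Their summed level ran from 584 to 2333 CPM in Shell (median 1167) and from 243 to 8179 CPM in Core (median 3225), and none was at 0. Adamts4 stood at 5.83 CPM per 1000 CPM of these markers in the median Shell library (4.26 to 10.7) and at 4.36 in the median Core library (2.86 to 18.5). All 6 oligodendrocyte precursor markers (median -0.75) and 6 of 7 microglial markers (median -0.32) were also called lower. Among 8 astrocyte markers, Gfap (-1.61 ± 0.17) and Aqp4 (-0.74 ± 0.13) were. Across libraries, after group and series means were removed, Adamts4 followed the mean log2 CPM of the oligodendrocyte markers. The correlation r was 0.73 over 42 Shell libraries and 0.95 over 41 Core libraries (17-F left out), as points that share library, depth and background. The means of some other marker lists gave high values in Core too, with varied values in Shell. These were 0.65 in Shell and 0.95 in Core with oligodendrocyte precursors, 0.39 and 0.91 with astrocytes, and 0.63 and 0.85 with microglia. Projection neurons gave 0.28 and 0.73, and immediate early genes 0.04 and 0.63. Endothelial markers gave 0.08 and 0.07, mural and fibroblast markers 0.02 and -0.14, and choroid plexus markers -0.45 and -0.71. With the background level the values were -0.51 and -0.85. The relation was not particular to Adamts4. Timp2 (0.91 in Shell and 0.82 in Core) and Timp4 (0.84 and 0.82) also followed the oligodendrocyte markers, and neither was called between subregions without a background term. Mmp2 (-0.61 and -0.75) and Mmp9 (-0.70 and -0.75) went against these markers. How much of the Adamts4 difference goes with oligodendrocytes was not tested. In bulk tissue, fewer cells of a type and less RNA per cell cannot be told apart.

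**Figure D3:**
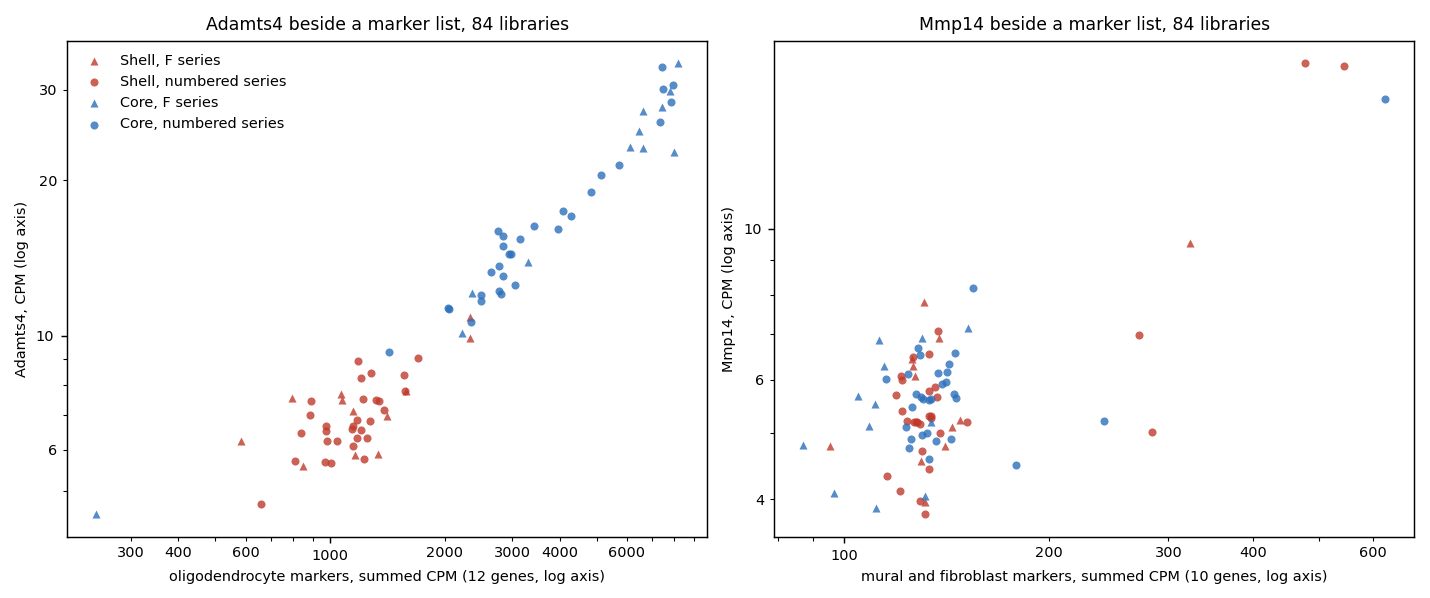
Left, Adamts4 (CPM, log axis) beside the summed CPM of 12 oligodendrocyte markers in each library. Right, Mmp14 beside the summed CPM of 10 mural and fibroblast markers. Most Core libraries lie to the upper right of the Shell libraries in the left panel, with 17-F at the lower left, and in the right panel 3 libraries stand apart at 477 to 625 CPM of markers.

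The other proteases did not pass between subregions. Mmp2, a gelatinase, ran from 4.16 to 9.31 CPM in Shell (median 7.35) and from 2.31 to 12.0 CPM in Core (median 8.10). Its Shell libraries lay inside the Core range, and the log2 fold change was 0.05 (95% interval -0.14 to 0.24, edgeR adjusted p = 0.735). Mmp9, the other gelatinase and the more inducible of the pair, ran from 0.236 to 4.45 CPM in Shell (median 2.99) and from 0.149 to 5.25 CPM in Core (median 3.63). Its spread in Core was wide, and its log2 fold change was -0.01 (-0.34 to 0.33, edgeR adjusted p = 0.985). Mmp9 was lower in the Core series of lower background: it had a median of 1.43 CPM in Core series F and 3.89 CPM in Core series 2, where the background was 3.99% and 28.3% of the library (medians).

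Mmp14, the membrane-bound activator of Mmp2, ran from 3.81 to 17.5 CPM in Shell (median 5.28) and from 3.88 to 15.5 CPM in Core (median 5.63). The subregions overlapped throughout apart from a few high libraries, with a log2 fold change of 0.05 (-0.13 to 0.23, edgeR adjusted p = 0.722). Adamts1, an angiogenesis inhibitor that cuts aggrecan and versican, ran from 2.68 to 7.76 CPM in Shell (median 4.40) and from 2.69 to 9.78 CPM in Core (median 4.64). Its log2 fold change was -0.05 (-0.20 to 0.09, edgeR adjusted p = 0.634), an interval that does not reach the size of the Adamts4 difference. Plat, the serine protease that starts the plasmin cascade, ran from 18.1 to 49.6 CPM in Shell (median 24.3) and from 11.1 to 51.8 CPM in Core (median 23.2). It gave -0.01 (-0.17 to 0.15, edgeR adjusted p = 0.924).

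None of the 4 inhibitors passed either. Timp2, the most broadly expressed inhibitor, ran from 59.8 to 262 CPM in Shell (median 124) and from 17.5 to 225 CPM in Core (median 101), a log2 fold change of 0.14 (-0.08 to 0.36, edgeR adjusted p = 0.388). Timp3, which binds to the matrix, ran from 26.0 to 76.6 CPM in Shell (median 32.0) and from 12.2 to 68.8 CPM in Core (median 28.7), a log2 fold change of 0.06 (-0.11 to 0.23, edgeR adjusted p = 0.661). In both genes the Shell median was the higher, and the subregions overlapped almost wholly. Timp4, an inhibitor known from brain and heart, ran from 4.69 to 14.1 CPM in Shell (median 7.18) and from 1.99 to 12.4 CPM in Core (median 6.38). Timp1, the injury-induced inhibitor, ran from 0.866 to 3.18 CPM in Shell (median 1.28) and from 0.497 to 2.76 CPM in Core (median 1.15). Their log2 fold changes were 0.03 for both (-0.16 to 0.21 and -0.17 to 0.23, edgeR adjusted p = 0.854 and 0.844).

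This count depended on the background term. With the log2 background level as a covariate in the same fit, 8 of the 10 genes were called, where 41.1% of all 32145 genes were called. Timp2 (0.50 ± 0.05), Timp3 (0.30 ± 0.05), Timp4 (0.30 ± 0.05), Timp1 (0.25 ± 0.08) and Plat (0.19 ± 0.06) were then higher in Shell (edgeR adjusted p at most 0.00622). Adamts4 (-1.03 ± 0.06), Mmp9 (-0.26 ± 0.08) and Mmp2 (-0.13 ± 0.04) were lower (edgeR adjusted p at most 0.0119). The calls of the 7 genes other than Adamts4 therefore rest on that term. The background level is computed from the same libraries.

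**Figure D4:**
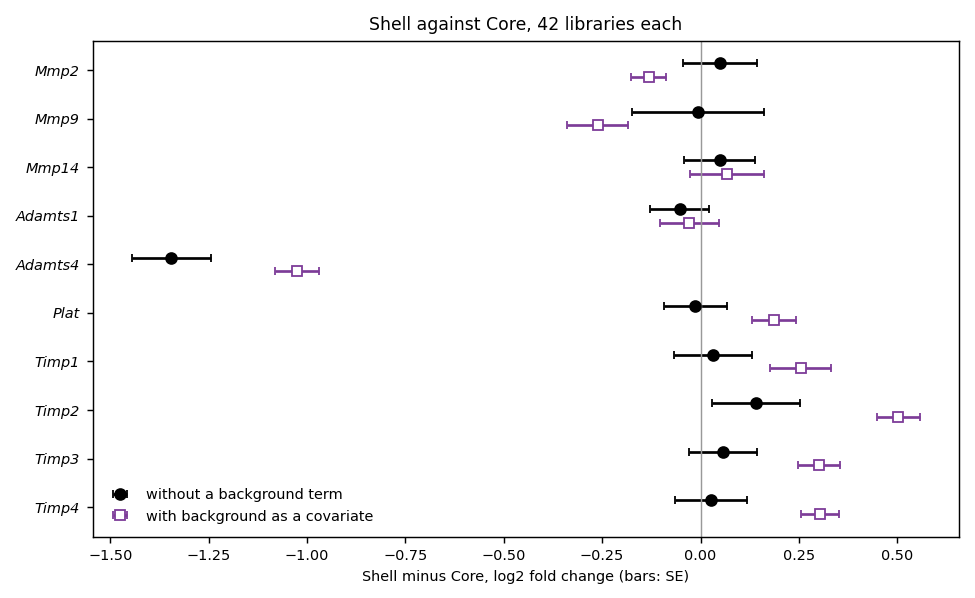
Log2 fold change, Shell minus Core, of each gene over 42 libraries of each subregion, without a background term (filled circles) and with the background level as a covariate (open squares), with bars for the SE. Adamts4 is far below 0 in both, at -1.34 and -1.03, and the 4 inhibitors and Plat lie to the right of 0 with the covariate.

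Cocaine was compared with saline within each condition and subregion. No gene of the 10 passed in any of these 8 contrasts (3 conditions and their mean, in Shell and in Core), where edgeR called 0% of all genes. DESeq2 called 0 of the 10 as well. At an unadjusted p under 0.05, 6 of the 40 tests in Shell (15.0%) and 1 of the 40 in Core (2.5%) passed, where 0.935% to 4.83% of all genes did in the Shell contrasts and 0.574% to 10.9% in the Core contrasts. Over the mean of the 3 conditions, the log2 fold changes of the 10 genes, Coc minus Sal, ran from -0.31 to 0.03 in Shell (median -0.02) and from -0.26 to 0.11 in Core (median -0.02).

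**Figure D5:**
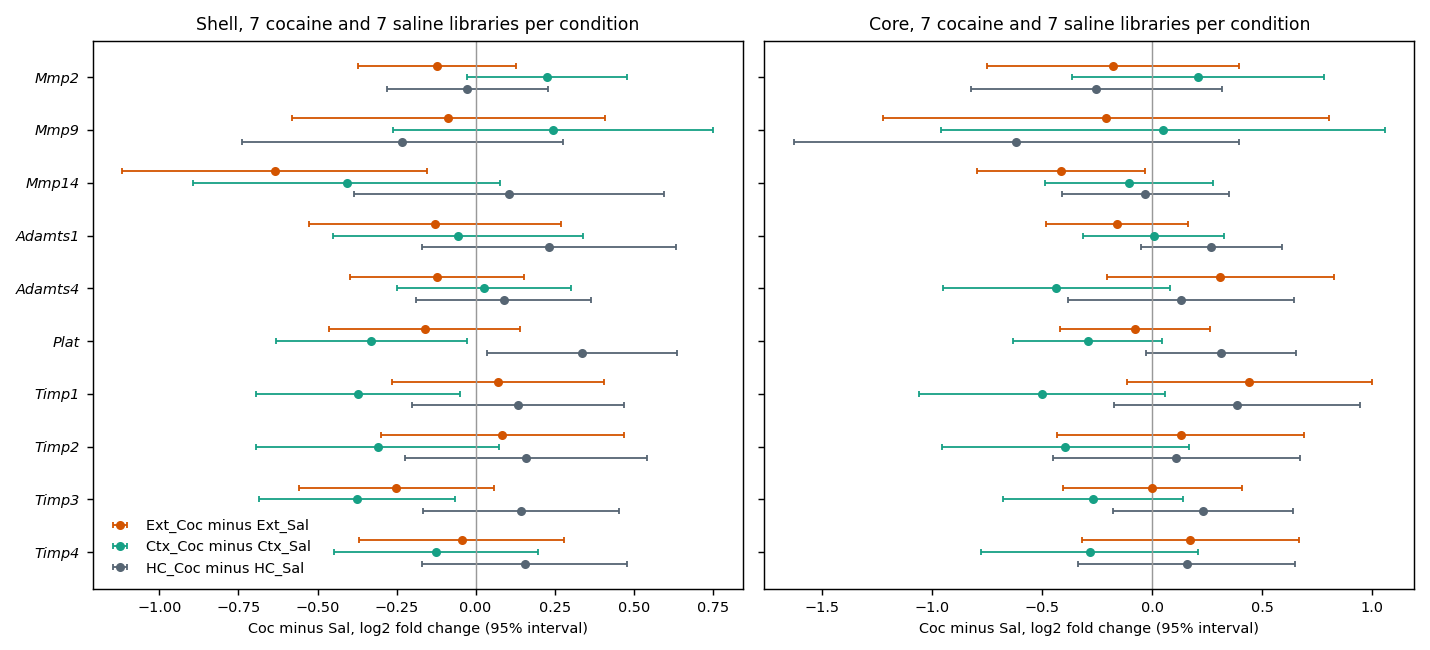
Log2 fold change, Coc minus Sal, of each gene in each condition, with 95% intervals, in Shell (left) and Core (right). None passed after adjustment over all genes, and the widest intervals are those of Mmp9 in Core.

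The lowest p in both subregions belonged to Mmp14 after extinction. In Shell it ran from 4.72 to 5.29 CPM in Ext_Coc (median 5.19) and from 4.55 to 17.5 CPM in Ext_Sal (median 6.55). The Ext_Coc libraries were tightly grouped and 6 of the 7 Ext_Sal libraries lay above them all. The log2 fold change was -0.64 ± 0.24 (95% interval -1.12 to -0.15, edgeR adjusted p = 0.998). In Core it ran from 4.09 to 6.27 CPM in Ext_Coc (median 5.22) and from 3.88 to 15.5 CPM in Ext_Sal (median 6.56), a log2 fold change of -0.41 ± 0.19 (-0.80 to -0.03, edgeR adjusted p = 0.923). The groups overlapped there. The highest Ext_Sal library in each subregion, Shell 3-6 and Core 1-6, was also among the 3 libraries with the highest mural and fibroblast sum (477 and 625 CPM, against a median of 132 CPM in Shell and 131 CPM in Core). The part of these cells in the Mmp14 values was not tested.

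Plat in Shell gave estimates on both sides of 0. It ran from 19.3 to 28.5 CPM in Ctx_Coc (median 22.0) and from 18.1 to 49.5 CPM in Ctx_Sal (median 24.6), a log2 fold change of -0.33 ± 0.15 (edgeR adjusted p = 0.731). In HC_Coc it ran from 25.0 to 49.6 CPM (median 30.3) and in HC_Sal from 22.4 to 27.5 CPM (median 25.1), a log2 fold change of 0.34 ± 0.15 (edgeR adjusted p = 0.891). Both pairs of groups overlapped. The highest HC_Coc library was 6-F, the Shell library of lowest background. Of the 10 genes, 3 had an unadjusted p under 0.05 in Shell Ctx: Plat, Timp1 (-0.37 ± 0.16) and Timp3 (-0.37 ± 0.15), each with edgeR adjusted p = 0.731.

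The gelatinases were not distinguishable between cocaine and saline. Mmp2 ran from 5.37 to 9.09 CPM in Shell Ext_Coc (median 7.10) and from 6.92 to 8.99 CPM in Shell Ext_Sal (median 7.85). Mmp9 ran from 2.35 to 3.72 CPM in Shell Ext_Coc (median 3.03) and from 1.67 to 4.11 CPM in Shell Ext_Sal (median 3.62). The groups overlapped, with log2 intervals of -0.37 to 0.13 for Mmp2 and -0.58 to 0.41 for Mmp9. In Core the intervals after extinction were wider. Ext_Coc minus Ext_Sal gave -0.18 for Mmp2 (-0.75 to 0.40) and -0.21 for Mmp9 (-1.225 to 0.805), with edgeR adjusted p = 0.923 for both. Over all 8 contrasts the 95% intervals reached from -0.83 to 0.78 for Mmp2 and from -1.63 to 1.06 for Mmp9. These intervals are for the counts, background included, and set no limit on a change of the transcripts alone. For Adamts4 the estimates ran from -0.44 to 0.31, for Timp2 from -0.39 to 0.16 and for Timp4 from -0.28 to 0.17, with no unadjusted p under 0.05 in these genes.

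Conditions were compared within cocaine and within saline libraries to set extinction beside the others. In these 12 contrasts none of the 10 genes passed, where edgeR called 0% of all genes, DESeq2 called 0 of the 10, and 6 of 60 tests in Shell and 2 of 60 in Core had an unadjusted p under 0.05. Of all genes, 0.705% to 15.9% did in the Shell contrasts and 0.23% to 9.52% in the Core contrasts. The lowest was Plat in Shell, which ran from 18.4 to 26.2 CPM in Ext_Coc (median 20.4) and from 25.0 to 49.6 CPM in HC_Coc (median 30.3). Of the 7 HC_Coc libraries, 5 lay above all Ext_Coc libraries. The log2 fold change, Ext_Coc minus HC_Coc, was -0.56 ± 0.15 (95% interval -0.86 to -0.26, unadjusted p = 0.000577 in edgeR's test, edgeR adjusted p = 0.464). With the background covariate it was -0.37 ± 0.13.

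Plat stood highest in HC_Coc by mean and median in both subregions, a description of group levels that the tests did not separate. In Core it ran from 11.1 to 29.0 CPM in Ctx_Coc (median 21.6) and from 21.2 to 46.6 CPM in HC_Coc (median 30.01), with a log2 fold change, Ctx_Coc minus HC_Coc, of -0.45 ± 0.17 (edgeR adjusted p = 0.449). The same contrast in Shell gave -0.48 ± 0.15 (edgeR adjusted p = 0.294), from 19.3 to 28.5 CPM in Ctx_Coc and from 25.0 to 49.6 CPM in HC_Coc. Without library 17-F the Core value was -0.32 ± 0.15. These contrasts share the HC_Coc and Ctx_Coc libraries with others above.

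Timp1 in Shell ran from 0.866 to 1.71 CPM in Ext_Sal (median 1.06) and from 1.15 to 3.18 CPM in Ctx_Sal (median 1.36). The groups overlapped, and the log2 fold change was -0.47 ± 0.16 (edgeR adjusted p = 0.509). Mmp2 in Shell ran from 6.98 to 9.31 CPM in Ctx_Coc (median 8.32) and from 4.16 to 7.79 CPM in HC_Coc (median 7.14), a log2 fold change of 0.27 ± 0.12 (edgeR adjusted p = 0.294). The background was 24.1% of the median library in Shell Ctx_Coc and 18.4% in Shell HC_Coc, and its part in the Mmp2 value was not tested.

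The order of the 6 groups differed by gene, and most neighbours in it lay within the spread of their libraries. On the log2 CPM scale the range of group means in Shell was 0.12 for Adamts4, against a pooled SD within groups of 0.25, and 0.56 for Plat, against 0.32. In Core it was 0.59 for Adamts4, against 0.60, and 0.50 for Plat, against 0.40. Among Shell groups, mean Adamts4 ran from 6.69 CPM in Ext_Coc to 7.28 CPM in Ctx_Coc. Among Core groups it ran from 14.3 CPM in Ctx_Coc, which holds 17-F, to 20.6 CPM in Ctx_Sal.

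Whether the drug effect differed between conditions, or between subregions, was tested as an interaction. None of the 10 genes passed in the 6 contrasts between conditions or the 4 between subregions, where edgeR called 0% of all genes, and DESeq2 called 0 of the 10. Between conditions, 5 of 30 tests in Shell and 4 of 30 in Core had an unadjusted p under 0.05, and between subregions 0 of 40. Of all genes, 0.78% to 7.9% did in Shell, 0.169% to 11.8% in Core and 0.308% to 1.76% between subregions. The lowest were again those of Plat: the drug effect in Ctx minus that in HC was -0.67 ± 0.21 in Shell (edgeR adjusted p = 0.505) and -0.61 ± 0.24 in Core (edgeR adjusted p = 0.351). With the background covariate they were -0.43 ± 0.18 in Shell and -0.29 ± 0.16 in Core. Between subregions the lowest was Adamts4 in Ctx, with a drug effect in Shell minus that in Core of 0.56 ± 0.34 (-0.11 to 1.24, edgeR adjusted p = 0.964). Over these 30 contrasts of drug and condition, 24 of 300 tests had an unadjusted p under 0.05, 8 of them in Plat, 7 in Timp1 and 5 in Mmp14, and the lowest edgeR adjusted p was 0.294.

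Within subregions the 10 genes fell into different patterns of likeness. The values below are Pearson correlations of log2 CPM after group and series means were removed, over 42 Shell and 41 Core libraries (17-F left out), which share depth and background. A marker list enters them as the mean log2 CPM of its genes, not as their summed CPM. Mmp2 and Mmp9 went with each other (0.64 in Shell, 0.91 in Core) and with the background level (Mmp2 0.78 and 0.88, Mmp9 0.81 and 0.91). With the mean of the choroid plexus markers the values were as high (Mmp2 0.78 and 0.90, Mmp9 0.89 and 0.96). These markers summed to only 10.4 to 49.5 CPM in Shell libraries and 6.27 to 56.5 CPM in Core libraries. The background share of their counts is not given, and a source of the gelatinases in choroid plexus was not tested. Timp2 and Timp4 went against the background (-0.83 and -0.91, and -0.79 and -0.89) and with each other (0.83 and 0.87). Plat and Timp3 also went together (0.82 and 0.86).

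Mmp14 and Adamts1 had almost no relation to the background (0.10 and 0.04 for Mmp14) and went with the mean of the mural and fibroblast markers: Mmp14 at 0.71 in Shell and 0.69 in Core, Adamts1 at 0.72 and 0.60. With the mean of the endothelial markers Mmp14 gave 0.61 and 0.32, and Adamts1 0.73 and 0.45. The 3 libraries of highest mural and fibroblast summed CPM were Core Ext_Sal 1-6, Shell Ctx_Sal 3-18 and Shell Ext_Sal 3-6. They were the highest 3 of all 84 for Mmp14 (15.5, 17.3 and 17.5 CPM) and for Timp3 (68.8, 76.6 and 58.8 CPM). Adamts1 was highest of all in Core 1-6, at 9.78 CPM, as was Plat, at 51.8 CPM. Timp1 was highest in Shell 3-18, at 3.18 CPM. Mmp2 was 4.77, 6.97 and 8.94 CPM in these 3 libraries, inside the range of the rest.

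Of 10854 genes searched, those most like each gene in both subregions were as follows. For Adamts4 they were Cygb, Lgi3 and Cntn2 (0.78 and 0.81, 0.77 and 0.94, 0.77 and 0.97, Shell and then Core). For Mmp14 they were Col1a1 (a fibrillar collagen), Aebp1 and Sned1 (0.82 and 0.76, 0.82 and 0.74, 0.83 and 0.72). Adamts1 was most like Vwf, the von Willebrand factor of endothelium (0.66 and 0.64), Ranbp3l and Sned1, at lower values than the other genes. Plat was most like Vcl (vinculin), Pdgfra (a receptor of oligodendrocyte precursors and fibroblasts) and Ctsl (0.86 and 0.82, 0.83 and 0.81, 0.81 and 0.83). Timp3 was most like Tln1, Pdgfra and Laptm4a (0.89 and 0.91, 0.88 and 0.93, 0.87 and 0.89).

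Those most like the gelatinases held a large share of expected background. So did Ranbp3l, named above for Adamts1, at 80.4% in the median library, beside Vwf at 39.5% and Sned1 at 37.4%. Mmp9 was most like Ccdc60, Col17a1 and Cfap221 (0.94 and 0.97, 0.94 and 0.98, 0.94 and 0.98), genes whose own counts were 49.4% to 77.4% expected background in the median library. Mmp2 was most like Itgae, Rai14 and Dsp (0.84 and 0.94, 0.84 and 0.92, 0.83 and 0.88), at 54.2% to 63.5%. Timp2 was most like Tulp2, Nucb1 and Nub1 (0.95 and 0.96, 0.95 and 0.96, 0.94 and 0.97), and Timp4 like Dzank1, Klhdc10 and Cul7 (0.91 and 0.93, 0.91 and 0.95, 0.91 and 0.91). Timp1 was below the level set for this search.

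The wider protease system was described by lists, each in Shell minus Core, where 4.56% of all genes were called higher, 8.77% lower, and the median of all genes was 0.05. Of 18 other matrix metalloproteases, 0 were called by edgeR (4 at an unadjusted p under 0.05) and their median log2 fold change was 0.13. The lowest p were those of Mmp3 (0.54 ± 0.21), Mmp15 (-0.19 ± 0.07) and Mmp16 (-0.16 ± 0.07), none called. Of 17 other ADAMTS genes, 3 were higher in Shell, Adamts6 (0.34 ± 0.03), Adamts19 (0.25 ± 0.06) and the aggrecanase Adamts5 (0.32 ± 0.10), and 1, Adamts10, was lower (-0.14 ± 0.05). Adamts5 and Adamts4, the best known aggrecanases, were thus called in opposite directions.

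In the plasminogen system 3 of 12 genes were higher in Shell and 0 lower. Those higher included S100a10, part of a plasminogen-binding complex (0.38 ± 0.09), and Serpinb2 (0.60 ± 0.20). For the genes of this and the other lists, levels and background shares are not given, and the part of background in their calls was not tested. Of 9 regulators of metalloproteases, 4 were lower, among them Spock1 (-0.39 ± 0.04), Adam17 (-0.28 ± 0.05) and Adam10 (-0.21 ± 0.06), and Reck, a membrane-anchored inhibitor, was higher (0.11 ± 0.04). Of 10 lecticans and their matrix partners, 6 were lower and 1 higher. Those lower included Hapln2, a link protein of myelinated axons (-1.38 ± 0.14), Vcan (-0.36 ± 0.06) and Tnr (-0.34 ± 0.07), with a list median of -0.29. Hapln4 was higher (0.36 ± 0.12). Acan (0.08 ± 0.12), Hapln1 (-0.06 ± 0.04) and Hapln3 (0.10 ± 0.11) were not called.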

How the data were processed

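Total RNA (Direct-zol columns, SMARTer Stranded Total RNA-Seq v3 Pico kit, per the labels' protocols) was sequenced in 84 libraries, 7 in each of 12 groups. The authors' deposited table gives raw read counts per gene, for which the submitters' processing notes name featureCounts and mRatBN7.2. For aligner, annotation and strand, the setting was not given in the sources used here. The authors' deposited FPKM values use 1 gene-body length per gene and were used only to compare levels between genes.

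Groups and series were read from the library names. Counts were scaled by TMM, filtered with filterByExpr and tested with edgeR 4.0.16 (R 4.3.3) by its quasi-likelihood test, and p-values were adjusted by Benjamini-Hochberg over all genes tested (31370 in Core, 30911 in Shell, 32145 in both) and a threshold of 0.05. Fits within a subregion held 42 libraries, 6 group means and series. The fit of both held 84 libraries, 12 group means and F against numbered series. CPM used TMM library sizes, and log2 CPM a prior count of 2. Background came from 1385 receptor genes and assumes an even spread over gene bodies. DESeq2 1.42.0, other scalings, no filter, no series term, subsets of series, a replicate block and a background covariate were alternatives. The fits were also run on simulated counts drawn without series effects or a shared background, so that run cannot speak for either. Genes were named as members, by lowest p in a family or list, or by likeness. The members, lists and tests were chosen with earlier results of these data known. Intervals cover the spread between libraries. Some genes of the lists and loci are not reported here.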

Additional observations from a re-analysis of the deposited data

Results flagged for a closer look

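Within each group of 7 libraries the highest and lowest log2 CPM of each gene were compared with their nearest neighbour, and libraries whose gap, as a share of the group's range, passed Dixon's 95% limit are given here. Chance gives about 1 in 20 such tests, and 16 of 120 met it. Shell HC_Coc library 6-F, with a background of 2.34%, accounted for 5: it was low in Mmp2 (2.097, group median 2.858) and Mmp9 (-1.515, group median 1.593) and high in Timp2 (8.036, group median 6.989), Timp4 (3.817, group median 2.967) and Adamts4 (3.324, group median 2.804).

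Shell Ctx_Sal library 24-F was low in Mmp2 (2.203) and high in Timp4 (3.831). Mmp9 was low in Core Ext_Sal library 3-F (-1.924) and Core Ctx_Coc library 19-F (-1.866), and Timp2 was low in Core Ctx_Coc library 17-F (4.14), where the background was 98.1%. Shell Ctx_Sal library 3-18 was high in Mmp14 (4.125) and Timp1 (1.718), Core Ext_Sal library 1-6 was high in Mmp14 (3.966), and Shell Ext_Sal library 3-6 was high in Timp3 (5.882). These 3 libraries had the highest mural and fibroblast sums of all 84. Mmp14 was low in Shell Ext_Coc library 3-3 (2.272), in a group of narrow range, and Adamts1 was low in Shell HC_Sal library 4-11 (1.609). The cause of these values was not tested.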

How the results depend on the processing

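Adamts4 was called lower in Shell under all 10 alternatives, with log2 fold changes from -1.63 to -1.03 and a highest edgeR adjusted p of 0.0452, in the F series alone. With the background covariate the count of genes called among the 10 changed to 8 between subregions, where 41.1% of all genes were called. Over the 60 within-group tests (10 genes in 6 groups) the calls changed to 17. The share of all genes called there with the covariate is not given, so the 17 cannot be set beside it. The within-group count, 5 of 60 tests with the settings of the report, was 6 with DESeq2's size factors, in DESeq2's Wald test and without 17-F. It was 0 in the F series alone, where each group held few libraries. The Adamts4 estimates there ran from -1.95 in Ext_Coc to -1.085 in Ctx_Coc, with SE of 0.67 to 0.68. In that series without 17-F, a setting chosen after seeing the data, they ran from -1.97 to -1.32. No alternative called any of the 10 in a contrast of drug or condition.

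Estimates near 0 changed sign in Shell minus Core. Mmp2 was -0.0596 without the F series and -0.13 with the covariate. Mmp9 was 0.0157 with no filter, 0.0295 without 17-F, 0.0924 with the replicate block, 0.60 in the F series and 1.21 in that series without 17-F. Plat was 0.0135 with DESeq2's size factors, 0.0142 in DESeq2's Wald test, 0.19 with the covariate and 0.0001862 with the block. In the F series and in that series without 17-F, Adamts1 was 0.0529 and 0.0337, Timp1 -0.19 and -0.31, Timp3 -0.0087 and -0.13, and Timp4 -0.0623 and -0.20. Timp2 was -0.14 in that series without 17-F, and the Adamts4 drug effect in Ctx, Shell minus Core, was -0.60. The cause was not tested.

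Over all genes, 4283 were called (1465 higher in Shell, 2818 lower). The count was 8454 without 17-F (4055 higher, 4399 lower), 13206 with the covariate (9503 higher, 3703 lower), 4171 with the block (2042 higher, 2129 lower), 76 in the F series (17 higher, 59 lower) and 714 in that series without 17-F (298 higher, 416 lower). The median log2 of all genes was 0.26 and 0.40 in the last 2 settings.

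Libraries of the same number in Core series 1 and 2 and Shell series 3 and 4 were checked for pairing. Their deviations correlated at -0.0977 to 0.52 (median 0.208, against -0.0123 for other pairings). Of 30 pairs, 23 were above 0.1, and 12 Shell and 10 Core libraries correlated best with their own number. This is a hint of pairing from the data. The numbers were not used as pairs, since no label says they mark pairs and not every pair was above 0.1. With the number as a block, Adamts4 was -1.30 ± 0.10 (edgeR adjusted p = 9.46e-14) and lower in Shell in 30 of 30 pairs, and the counts of members called were 1 and 5, as without it.

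Depth limited Timp1 and Mmp9 most, with medians of 22 and 56.5 counts a library. Expected background, which assumes an even spread, was largest beside the counts of Timp1 and Mmp2.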
